A study of Mus musculus with 8 samples.

Results

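The replication-dependent histone genes are described here by where H3.3, a variant of histone H3, was found around them. They were taken as the protein-coding mouse genes whose symbols start with Hist1h, Hist2h, Hist3h or Hist4h in the GENCODE M1 annotation of mm9, which gave 67 genes of 22367. Of these, 6 encode the linker histone H1, 19 encode H2A, 18 H2B, 11 H3 and 13 H4. The study located HA-tagged H3.3 by ChIP-seq of native chromatin, which micrococcal nuclease had cut and from which an anti-HA antibody recovered the tagged nucleosomes. It used Hira-null mouse embryonic stem cells (mESCs) of 1 line, Clone104, and wild type (WT) mESCs of 1 line, W9.5, both with the H3.3-HA tag. Each genotype was sampled at day 15 of differentiation towards cardiomyocytes through embryoid bodies, when the cultures were a mixture with beating foci, and undifferentiated at day 0. Each of the 4 conditions had 1 ChIP and 1 input library, and the files give 1 peak list per condition, so every difference is described without a test.

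These genes supply the bulk histones that package new DNA, and their transcription rises in S phase. They are short, mostly lack introns and lie together in clusters, where an H2A gene and an H2B gene often share a promoter and are read in opposite directions. Their mRNAs are not polyadenylated and end just past a conserved stem-loop that the stem-loop binding protein SLBP recognises. H3.3 itself comes from genes outside this group, is expressed through the cell cycle and can be placed in chromatin without DNA replication. HIRA is one of its chaperones and is known for H3.3 placement at active genes.

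The stem-loop is shown because part of the WT peaks described further on lie near the stop codon. These were 25 of 56 at day 15 and 26 of 43 at day 0. As most of the genes are short, a peak near the gene is also near the stem-loop. The letters CTTTTCAG, its central part, were found on the sense strand within 150 bases past the stop codon of 52 of the 67 genes in mm9. In 50 of the 52, at least 5 of the 6 bases on each side of the loop could pair with each other, with all 6 pairing in 49 genes and 5 in Hist1h2an. The matches in Hist1h4i and Hist1h2bb did not pair and are not counted as stem-loops. In the 50 genes the letters began 28 to 63 bases past the stop codon, with a median of 36. The following examples, of 26 bases each and with CTTTTCAG in capitals, are from the H1 gene Hist1h1b (chr13:21871701-21871726, minus strand), the H2A gene Hist1h2ae (chr13:23662532-23662557, minus), the H2B gene Hist1h2bg (chr13:23663707-23663732, plus), the H3 gene Hist1h3i (chr13:21874784-21874809, minus) and the H4 genes Hist4h4 (chr6:136752514-136752539, minus) and Hist1h4j (chr13:21827301-21827326, plus).
Hist1h1b: ccaaaggctCTTTTCAGagccaccta
Hist1h2ae: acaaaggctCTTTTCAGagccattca
Hist1h2bg: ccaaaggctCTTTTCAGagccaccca
Hist1h3i: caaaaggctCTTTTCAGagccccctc
Hist4h4: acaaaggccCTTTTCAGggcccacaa
Hist1h4j: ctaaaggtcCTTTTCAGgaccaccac

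Peaks were counted from 10 kb upstream of the TSS to 3 kb past the gene end. Because these windows overlap, they merge into 16 clusters that span 455.7 kb, and each distinct peak was also counted once. Of the 16 clusters, 11 lie on chromosome 13 with the Hist1h genes, 3 on chromosome 3 with the Hist2h genes, 1 on chromosome 11 with Hist3h2ba and Hist3h2a, and 1 on chromosome 6 with Hist4h4 alone. The whole lists held 7332 Hira-null and 27272 WT peaks at day 15, and 17706 Hira-null and 22730 WT peaks at day 0. The lowest score was 50 in each list, where the score is a scaled negative logarithm of the peak p-value that grows with depth, and the read depth of the libraries is unknown. As a check of the labels, the 6 cardiomyocyte markers (Myh6, Myh7, Tnnt2, Actc1, Nkx2-5 and Tnni3) had a peak in none of the 4 lists, at day 15 or at day 0. Of the 6 mESC markers (Pou5f1, Nanog, Zfp42, Esrrb, Dppa2 and Tet1), 1 had a peak in the Hira-null list and 2 in the WT list of day 15, against 4 in the Hira-null list and 6 in the WT list of day 0. The markers therefore separate the days in WT cells, but give no mark of cardiomyocytes in these lists.

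At day 15, nearly all of the histone genes had a WT H3.3 peak in their windows, which neighbours share, and 1 gene had a Hira-null peak. A peak lay in the window of 1 of 67 genes (1.49%) in Hira-null cells, against 61 of 67 (91.0%) in WT cells. Over all protein-coding genes the shares were 15.2% in Hira-null and 39.4% in WT cells. Among 1846 other genes of at most 1 kb, which have windows of like size, 4.01% had a Hira-null peak and 8.40% a WT peak. Among the 811 other genes of chromosome 13, 17.6% had a Hira-null and 36.5% a WT peak. The histone genes thus stood above all of these sets in the WT list, while a single gene in the Hira-null list is near the share of short genes. The median histone gene had 0 peaks in Hira-null and 2 in WT cells, and the median over all genes was 0 in both. Within the gene body and 1 kb on each side, 49 histone genes had a WT peak of day 15 and 0 a Hira-null peak. The share over all genes was not counted with this narrower window.

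Counted once each, 2 Hira-null peaks and 56 WT peaks of day 15 lay in the histone gene windows. They covered 1.02 kb (0.224%) in Hira-null and 60.6 kb (13.3%) in WT cells. In the windows of the 55 genes on chromosome 13 this came to 5.54 peaks per Mb in Hira-null and 113 per Mb in WT cells, whereas the whole chromosome had 2.82 peaks per Mb in Hira-null and 7.72 per Mb in WT cells. By this measure the Hira-null windows were not below their chromosome. None of the 56 WT peaks overlapped a Hira-null peak of day 15 by 1 bp, and 3 peaks, the limit that a count of 0 allows, would be 5.36%. Over the whole WT list, 91.9% of peaks had no Hira-null partner. HIRA-dependent peaks, meaning WT peaks with no Hira-null partner, lay in the windows of 61 of 67 histone genes (91.0%), against 37.5% of all genes. These were all of the 61 histone genes with a WT peak. Over all genes, 8380 of the 8810 with a WT peak also had a HIRA-dependent one, so this is common to most genes with a WT peak.

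**Figure D1:**
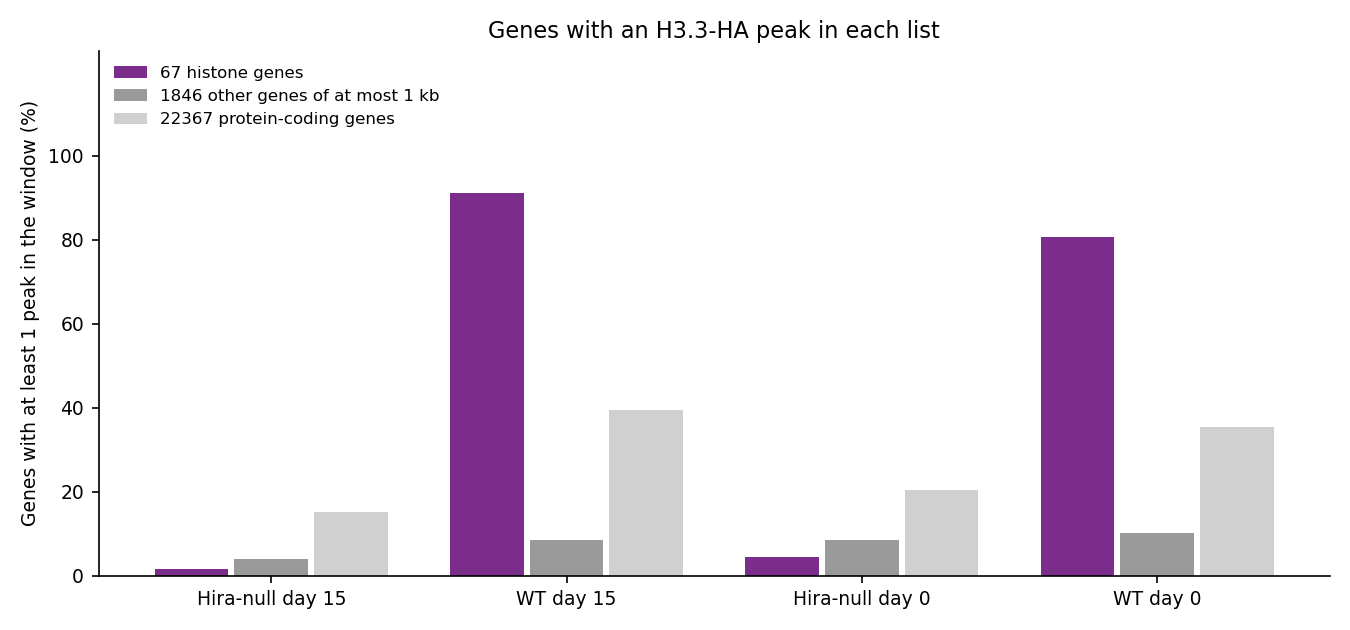
Percentage of genes whose window (10 kb before the TSS to 3 kb past the gene end) held 1 peak or more, for the 67 histone genes, 1846 other genes of at most 1 kb and all 22367 protein-coding genes in each of the 4 peak lists. The histone genes stand at 91.0% and 80.6% in the WT lists of day 15 and day 0, and at 1.49% and 4.48% in the Hira-null lists of the same days.

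The same contrast was seen in undifferentiated cells. At day 0, 3 of 67 histone genes (4.48%) had a peak in Hira-null cells, against 54 of 67 (80.6%) in WT cells, while over all genes the shares were 20.3% in Hira-null and 35.4% in WT cells. Short genes of at most 1 kb had a peak in 8.50% of cases in Hira-null and 10.2% in WT cells. The windows held 3 distinct Hira-null peaks, which covered 4.18 kb (0.916%), against 43 WT peaks, which covered 49.8 kb (10.9%). A Hira-null peak of day 0 overlapped 1 of the 43 WT peaks. The share of WT peaks without a Hira-null partner was 97.7% (exact Clopper-Pearson 95% interval 87.7 to 99.9%), beside 72.7% over the whole WT list of day 0. Intervals cover counting error over peaks only. On chromosome 13 the windows held 8.30 Hira-null and 102 WT peaks per Mb at day 0, against 8.35 Hira-null and 9.33 WT peaks per Mb of the whole chromosome. A WT peak of day 0 without a Hira-null partner lay in the window of 53 of 67 histone genes (79.1%), against 31.0% of all genes. Over all genes, 6926 of the 7911 with a WT peak of day 0 had one.

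The lists differ in length and in score, so the counts were repeated with equal lengths and, separately, with the same lowest score. Each setting leaves the other property unequal, and in both the histone genes with a WT peak outnumbered those with a Hira-null peak. With every list held to its 7332 highest-scoring peaks, 1 histone gene had a peak in Hira-null and 44 in WT cells at day 15, and 1 in Hira-null and 34 in WT cells at day 0. The shares over all genes were then 15.2% in Hira-null and 18.2% in WT cells at day 15, and 10.1% in Hira-null and 16.5% in WT cells at day 0. When only peaks scoring 100 or more were kept, the histone genes with a peak were 0 in Hira-null and 52 in WT cells at day 15, and 2 in Hira-null and 34 in WT cells at day 0. The shares over all genes were then 8.21% in Hira-null and 23.7% in WT cells at day 15, and 13.6% in Hira-null and 17.2% in WT cells at day 0, from lists of 3302 Hira-null and 10892 WT peaks at day 15, and 10507 Hira-null and 7788 WT peaks at day 0. In bulk chromatin, fewer cells with H3.3 at a gene and less H3.3 in each cell cannot be told apart, and each genotype is 1 line, so line and genotype cannot be told apart either.

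**Figure D2:**
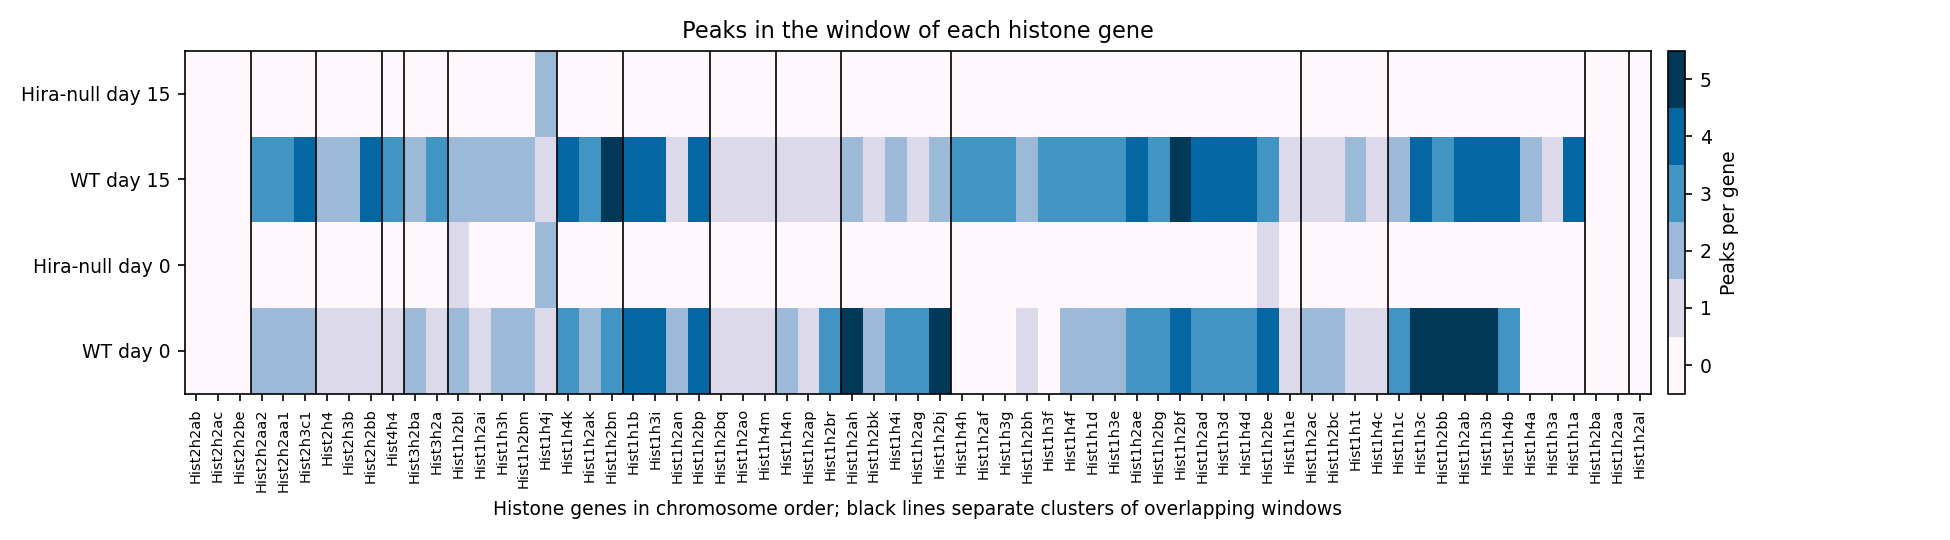
Number of peaks in the window of each of the 67 histone genes, in chromosome order from left to right, with the Hira-null list of each day above the WT list and black lines between clusters of overlapping windows. The colour reaches 5 peaks per gene in both WT rows, and only Hist1h4j is coloured in the Hira-null row of day 15.

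The few Hira-null peaks lay apart from the gene ends and start sites. At day 15 both were between the H2B gene Hist1h2bm and the H4 gene Hist1h4j, at chr13:21819681-21820303 with a score of 61.3 and at chr13:21820386-21820783 with a score of 52.1. At day 0 the same stretch held Hira-null peaks at chr13:21819620-21821289, with a score of 309.0, and at chr13:21817733-21819150, with a score of 137. A WT peak of day 0, at chr13:21820202-21820930 with a score of 86.6, overlapped the stronger of these and both Hira-null peaks of day 15. The other Hira-null peak of day 0, at chr13:23683363-23684449 with a score of 66.3, fell within the long gene model of the H2B gene Hist1h2be. Hist1h4j was thus the 1 gene with peaks in all 4 lists, while Hist1h2bl and Hist1h2be, both H2B genes, had peaks in both WT lists and in the Hira-null list of day 0. The Hira-null peaks between Hist1h2bm and Hist1h4j were nearest to Hist1h2bm, but lay over 3 kb past its end. They counted for Hist1h4j, and 1 of day 0 for Hist1h2bl, because windows reach 10 kb upstream. The 1 WT peak of day 15 at Hist1h4j, chr13:21827248-21828781 with a score of 218, covered the stem-loop printed above, and no Hira-null peak did.

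No Hira-null peak of either day covered the end of a histone gene. The gene end was covered in 0 of 67 genes in Hira-null and 22 of 67 in WT cells at day 15, where the shares over all genes were 1.86% in Hira-null and 5.97% in WT cells. It was covered in 0 of 67 genes in Hira-null and 20 of 67 in WT cells at day 0, where the shares over all genes were 1.21% in Hira-null and 3.52% in WT cells. On both days 0 of 67 is near the Hira-null share over all genes, so it is the WT counts that stand apart. The median distance from the end of a histone gene to the nearest peak was 57.9 kb in Hira-null and 0.639 kb in WT cells at day 15. It was 50.5 kb in Hira-null and 1.27 kb in WT cells at day 0. Over all genes the medians were 120 kb in Hira-null and 39.5 kb in WT cells at day 15, and 60.9 kb in Hira-null and 38.2 kb in WT cells at day 0.

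At day 15 WT peaks covered the ends of the histone genes more often than their starts, while at day 0 the counts were closer, with 20 ends and 16 starts. The TSS was covered in 0 genes in Hira-null and 7 in WT cells at day 15, against 0.210% of all genes in Hira-null and 2.43% in WT cells. At day 0 it was covered in 0 genes in Hira-null and 16 in WT cells, against 0.349% of all genes in Hira-null and 2.28% in WT cells. Of the 56 WT peaks of day 15, 12 had their midpoint upstream of the nearest histone gene, 12 within it and 32 past its end. Of the 43 WT peaks of day 0, the counts were 4 upstream, 14 within and 25 past the end. The median midpoint lay 540 bp past the stop codon at day 15 and 263 bp past it at day 0, and 25 of the 56 and 26 of the 43 fell from 500 bp before to 1000 bp past a stop codon.

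Cover around the gene end was highest 300 bp past it in WT cells at day 15, in 24 histone genes (35.8%), and 100 bp past it at day 0, in 21 genes (31.3%). For other genes over 1 kb the highest cover around the gene end was 6.45% in WT cells at day 15 and 3.97% at day 0, and for other genes of at most 1 kb it was 1.73% and 1.84%. The other genes over 1 kb had their highest WT cover before the TSS instead, 8.10% at 800 bp upstream at day 15 and 5.43% at 700 bp upstream at day 0. Histone genes are short, so both ways of measuring describe nearly the same places. Their cover counted from the TSS was highest 1300 bp past it in WT cells at day 15 (37.3%) and 800 bp past it at day 0 (41.8%).

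**Figure D3:**
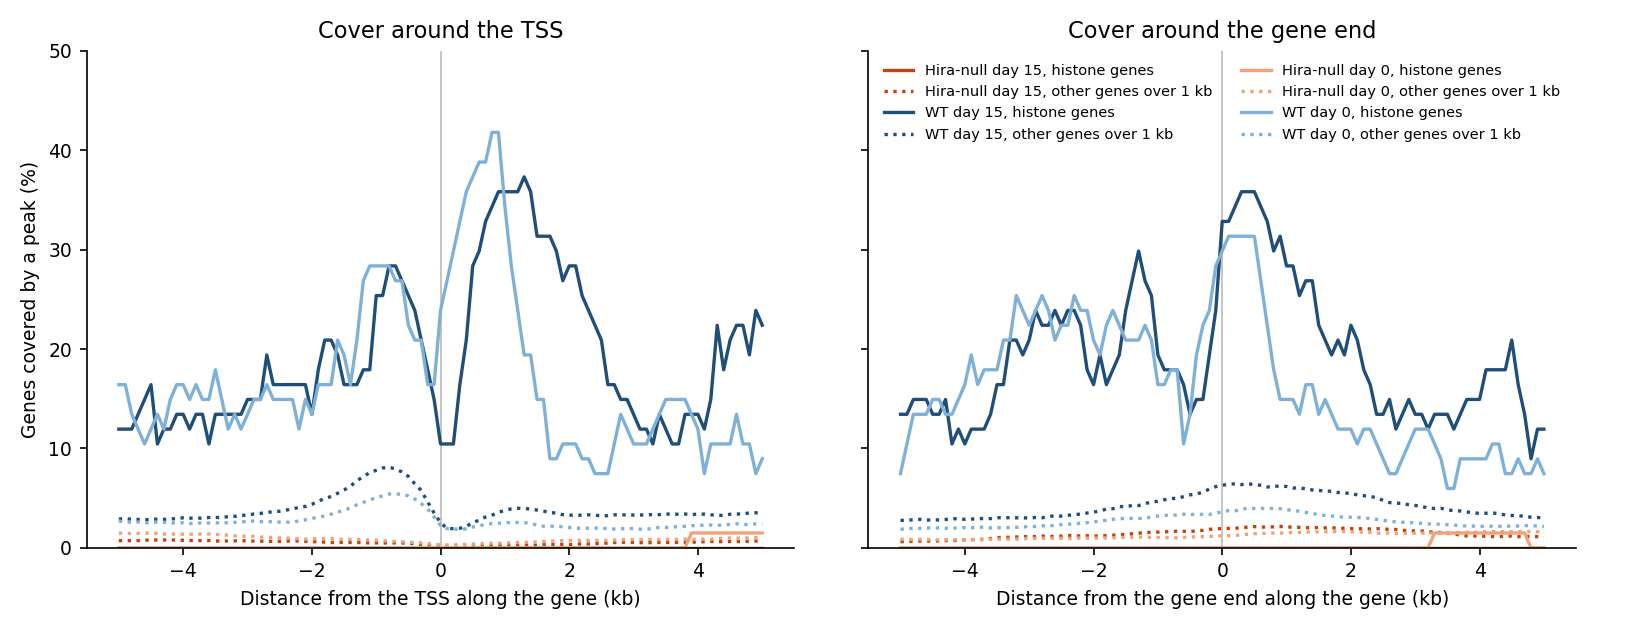
Share of genes covered by a peak at each distance from the TSS (left) and from the gene end (right), with solid lines for histone genes and dotted lines for other genes over 1 kb, in the 4 peak lists. The WT lines of the histone genes rise to 35.8% (day 15) and 31.3% (day 0) past the gene end, while the Hira-null lines of the histone genes reach at most 1.49%.

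Most histone genes had WT peaks on both days. Peaks lay in the window of 51 genes in the WT lists of both days and in neither Hira-null list, while 7 genes had peaks at day 15 in WT cells only. These were Hist1h4h, Hist1h2af, Hist1h3g and Hist1h3f in 1 cluster and Hist1h4a, Hist1h3a and Hist1h1a at the end of another. The share of all genes with the pattern of the 51 was not counted. Over all genes, only 15.2% had a Hira-null peak at day 15 and 20.3% at day 0, so lacking one is common. Compared between days, WT cells had more peaks at day 15 for 30 genes, the same number for 21 and more at day 0 for 16. Over all genes, 27.9% had more WT peaks at day 15, 55.6% the same number and 16.5% more at day 0, and the WT list is longer at day 15. A WT peak at day 15 alone was found for 10.4% of histone genes, against 15.6% of all genes, and one at day 0 alone for 0 histone genes, against 11.5% of all genes. Of the 56 WT peaks of day 15, 25 (44.6%, 95% interval 31.3 to 58.5%) overlapped a WT peak of day 0, beside 22.0% of the whole list. Of the 43 WT peaks of day 0, 24 (55.8%, 39.9 to 70.9%) overlapped a WT peak of day 15, beside 25.7% of the whole list.

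The WT peaks of the days also differed in position. At 1000 bp past the gene end 19 histone genes were covered at day 15, against 10 at day 0, while the TSS was covered in 7 at day 15, against 16 at day 0. Peak width did not move with this, since the median was 1042 bp at day 15 and 1041 bp at day 0. The score did: its median in the windows was 104 at day 15 (range 52.5 to 421) and 77.8 at day 0 (50.1 to 244), which places the median peak at percentile 62.9 of its own list at day 15 and at percentile 47.5 at day 0. In Hira-null cells there were 2 peaks at day 15 and 3 at day 0, too few to describe a shift.

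**Figure D4:**
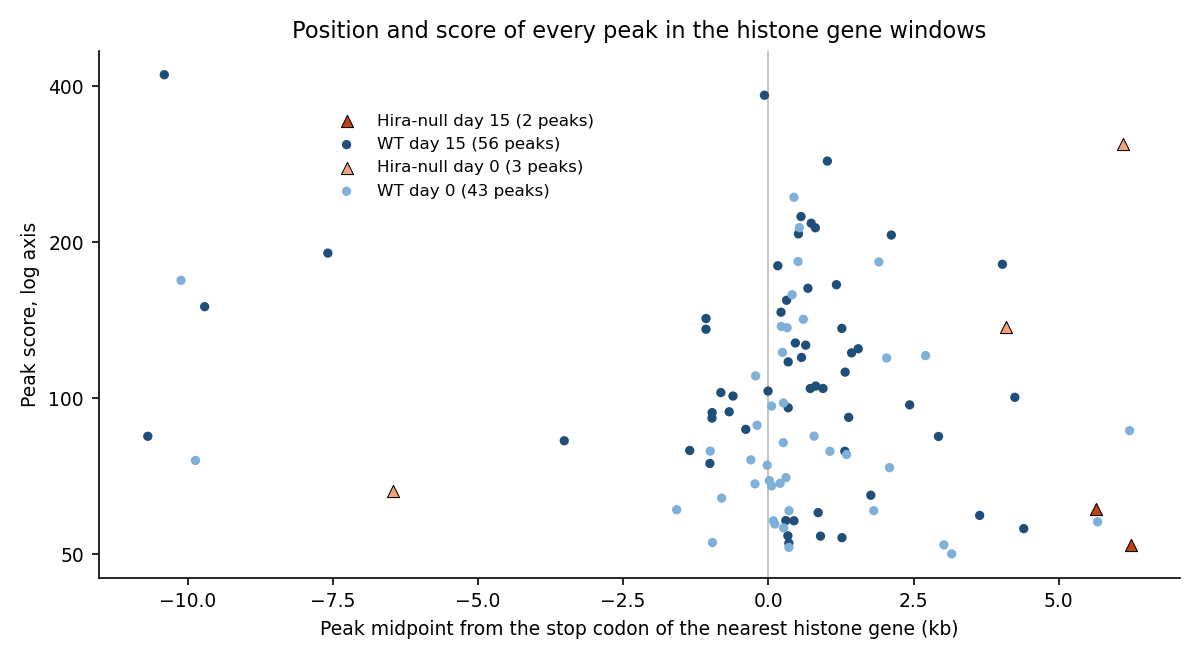
Score of every peak in the histone gene windows, on a log axis, against the distance of its midpoint from the stop codon of the nearest histone gene, in kb. Hira-null peaks are triangles (2 at day 15, 3 at day 0) and WT peaks are circles (56 at day 15, 43 at day 0). Of the WT circles, 25 at day 15 and 26 at day 0 lie from 500 bp before to 1000 bp past a stop codon, and no triangle does.

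All classes of histone had WT peaks. The 6 H1 genes had a peak in 0 Hira-null and 6 WT cases at day 15, and in 0 Hira-null and 5 WT cases at day 0. H2A, the partner of H2B in the nucleosome, had 0 of 19 genes with a Hira-null and 15 with a WT peak at day 15, and 0 with a Hira-null and 14 with a WT peak at day 0. Among the 18 H2B genes the counts were 0 Hira-null and 16 WT at day 15, and 2 Hira-null and 16 WT at day 0. As in H1, every gene of H3 and H4, the classes that form the core tetramer, had a WT peak somewhere in its window at day 15. The 6 genes with no peak in any list are H2A and H2B genes, and they lie in clusters that held no peak at all. All 11 H3 genes, which encode the replicative H3 that H3.3 replaces, had a WT peak and 0 a Hira-null peak at day 15, against 8 WT and 0 Hira-null at day 0. All 13 H4 genes had a WT peak and 1 a Hira-null peak at day 15, against 11 WT and 1 Hira-null at day 0.

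The classes differed more in where the peaks lay. A WT peak covered the gene end of 6 of 11 H3 genes at day 15 and 2 at day 0. For H2B genes, a WT peak covered the gene end of 4 of 18 at day 15 and 7 at day 0, and the TSS of 3 at day 15 and 9 at day 0. No H2A gene had its TSS covered at either day, in WT or Hira-null cells. The counts by class are small, and neighbouring genes share peaks.

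By cluster, WT peaks were most numerous in those with the most genes. The largest, from Hist1h4h to Hist1h1e (chr13:23612919-23724371, 16 genes), held 0 Hira-null and 15 WT peaks at day 15, and 1 Hira-null and 9 WT peaks at day 0. All 16 of its genes had a WT peak at day 15. The cluster from Hist1h1c to Hist1h1a (chr13:23820676-23864255, 9 genes) held 0 Hira-null and 7 WT peaks at day 15, and 0 Hira-null and 6 WT peaks at day 0. The cluster from Hist1h2ah to Hist1h2bj (chr13:22117690-22144818, 5 genes) went the other way with day, with 2 WT peaks at day 15 and 5 at day 0, and with 0 Hira-null peaks at both days.

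**Figure D5:**
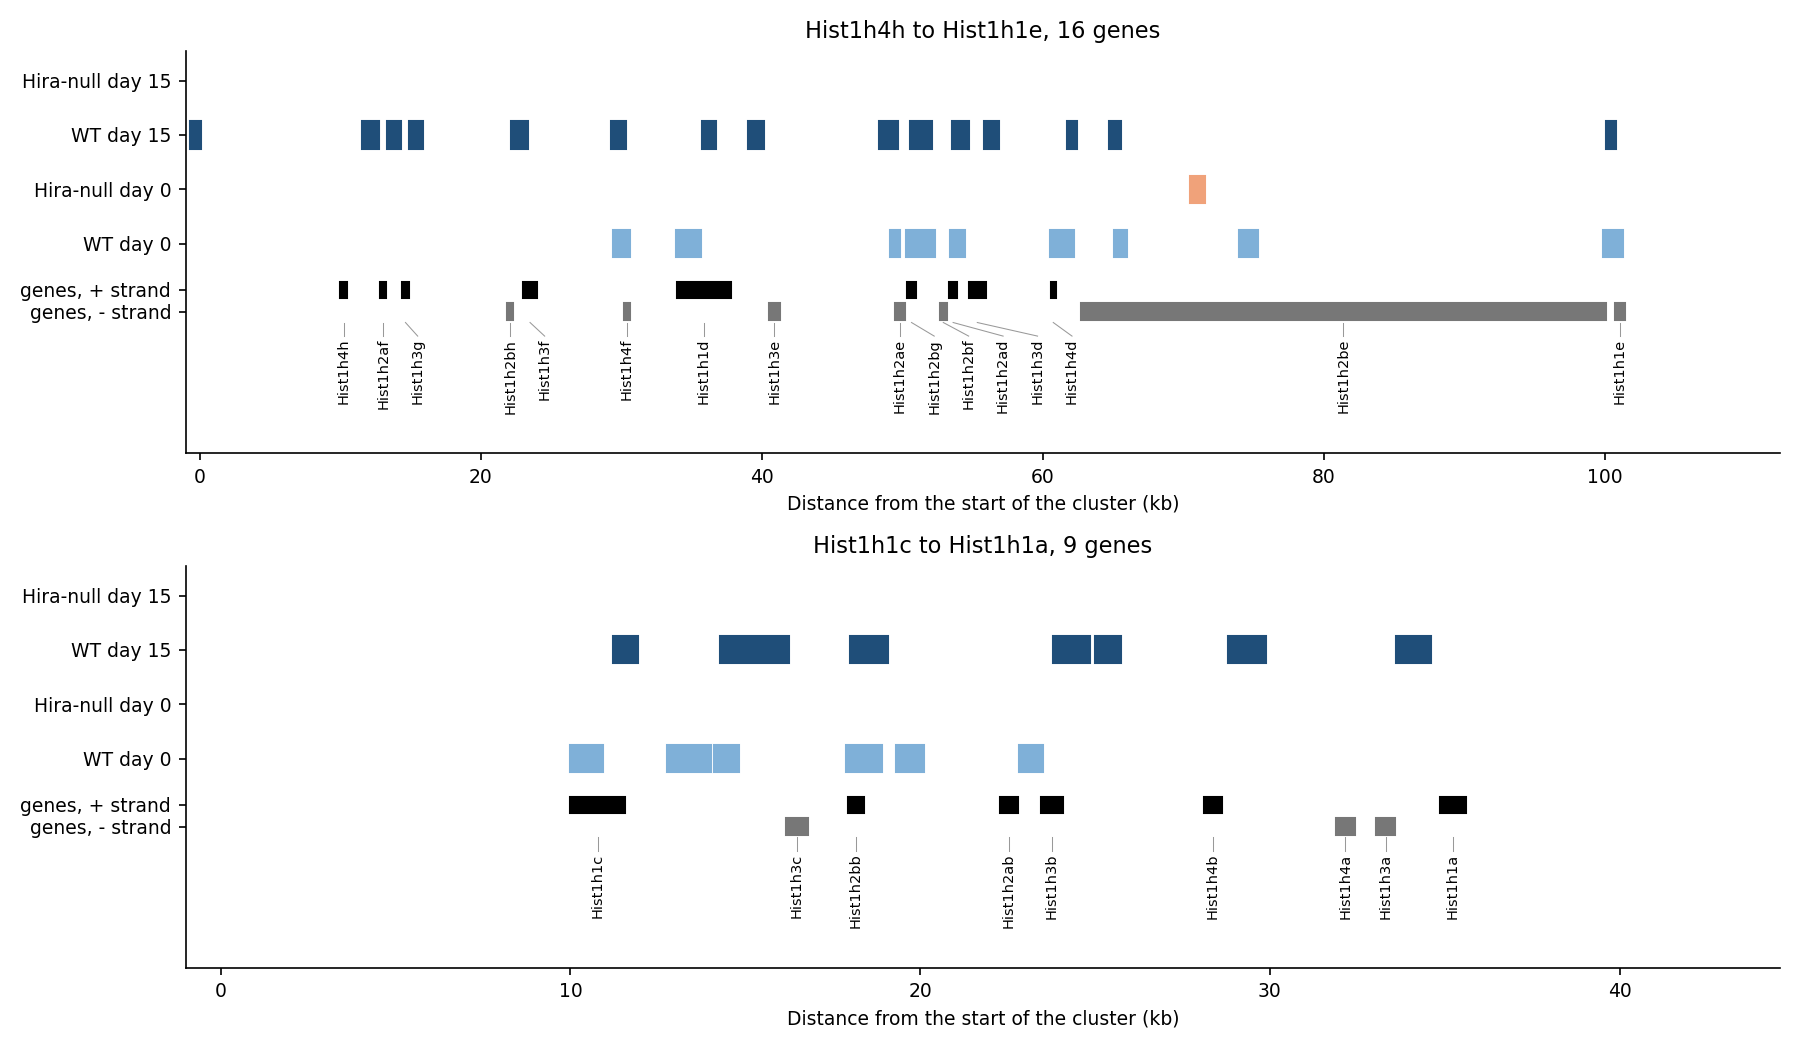
Maps of the 2 clusters with the most histone genes, Hist1h4h to Hist1h1e (16 genes) and Hist1h1c to Hist1h1a (9 genes), with distance from the start of the cluster in kb, peaks as boxes to scale, the Hira-null row of each day above the WT row, and genes by strand below. The WT rows hold 15 and 7 boxes at day 15 and 9 and 6 at day 0, against 1 box in all in the Hira-null rows.

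The genes with the most peaks over the 4 lists were all Hist1h genes. The H2B gene Hist1h2bf had 0 Hira-null and 5 WT peaks at day 15, and 0 Hira-null and 4 WT peaks at day 0. The H3 genes Hist1h3c and Hist1h3b and the H2A gene Hist1h2ab, which are neighbours and share peaks, each had 0 Hira-null and 4 WT peaks at day 15, and 0 Hira-null and 5 WT peaks at day 0. The H2B gene Hist1h2bn had 5 WT peaks at day 15 and 3 at day 0, and 0 Hira-null peaks at either day. The linker gene Hist1h1b, the H3 gene Hist1h3i and the H2B gene Hist1h2bp each had 4 WT peaks at day 15 and 4 at day 0, and Hist1h2bb had 3 at day 15 and 5 at day 0, all with 0 Hira-null peaks. Hist1h2be had 0 Hira-null and 3 WT peaks at day 15, and 1 Hira-null and 4 WT peaks at day 0. The H2A genes Hist1h2ad and Hist1h2ae, the H3 gene Hist1h3d and the H4 genes Hist1h4b, Hist1h4d and Hist1h4k each had 4 WT peaks at day 15 and 3 at day 0. In the pair of Hist1h2ah (H2A) and Hist1h2bj (H2B) the order of the days was the other way, with 2 WT peaks at day 15 and 5 at day 0 for each gene. These 8 genes had 0 Hira-null peaks at either day.

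The genes outside Hist1h showed the same contrast at smaller numbers. Hist4h4 had 0 Hira-null and 3 WT peaks at day 15, and 0 Hira-null and 1 WT peak at day 0. One of its WT peaks of day 15, chr6:136751332-136753980 with a score of 384, covered the whole gene and its stem-loop, and so did that of day 0, chr6:136751807-136753831 with a score of 68.4. The highest score of all, 421 for the WT peak of day 15 at chr6:136761658-136764320, was in the same window but nearer to Wbp11 than to Hist4h4. The remaining WT peak of day 15 in this window, chr6:136759259-136761090, was nearer to H2afj. On chromosome 11, Hist3h2ba had 2 WT peaks at day 15 and 2 at day 0, and Hist3h2a had 3 at day 15 and 1 at day 0, with 0 Hira-null peaks. In the Hist3h2ba window the WT peaks chr11:58752510-58753724 of day 15 and chr11:58752446-58753473 of day 0 were nearer to Rnf187. In the Hist3h2a window the WT peak chr11:58771979-58773346 of day 15 was nearer to Trim17. Chromosome 11 was dense in peaks as a whole, with 3.42 Hira-null and 46.7 WT peaks per Mb at day 15, and 7.04 Hira-null and 23.7 WT peaks per Mb at day 0.

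On chromosome 3, the H3 gene Hist2h3c1 had 4 WT peaks at day 15 and 2 at day 0, and the H2A genes Hist2h2aa1 and Hist2h2aa2 each had 3 at day 15 and 2 at day 0. The H2B gene Hist2h2bb had 4 WT peaks at day 15 and 1 at day 0, and Hist2h3b and Hist2h4 each had 2 at day 15 and 1 at day 0. Hira-null peaks were at 0 for all 6 of these genes. The strongest peak there, at chr3:96040769-96042560 in WT cells at day 15, had a score of 206, and the strongest of day 0 in WT cells, at chr3:96052157-96054087 past Hist2h3c1, had a score of 183. The neighbouring genes Hist2h2ab, Hist2h2ac and Hist2h2be had a peak in none of the 4 lists.

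In all, 6 genes had no peak in any list. Beside these Hist2h genes they were Hist1h2ba and Hist1h2aa, the H2B and H2A genes of a pair known for expression in the testis, and Hist1h2al, which stands alone at chr13:51298057-51298434. Hist1h1t, the testis linker histone gene, had 2 WT peaks at day 15 and 1 at day 0, within a window that also reaches other genes.

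The strongest WT peaks of day 15 on chromosome 13 included chr13:23834952-23836928 past the end of Hist1h3c, with a score of 287, and chr13:23663473-23665015 past Hist1h2bg, with a score of 224. In WT cells at day 0 the strongest were chr13:21925615-21927308 at Hist1h2br (score 244), chr13:23663164-23665268 at Hist1h2bg (213) and chr13:23673437-23675149 at Hist1h4d (184). Every 50-base window of the Hist1h2br peak recurs elsewhere in the histone clusters, and the same holds for the WT peak of day 0 at its near-identical neighbour Hist1h2bq, so reads there may have come from another copy. In the median histone gene 45.8% of the 50-base windows recur elsewhere in the histone clusters, but only 2 WT peaks of day 15 and 2 of day 0 were made up mostly of such windows. How the aligner treated reads with several matches is not given in the sources used here.

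The stem-loop itself was covered by a WT peak in 17 of the 50 genes that have it at day 15 and in 20 at day 0, and by a Hira-null peak in 0 at both days. No share over all genes was counted for the stem-loop or the stop codon. Over the gene end, the Hira-null shares of all genes were 1.86% at day 15 and 1.21% at day 0, and 0 of 50 is near them. Both the Hist1h2ae and the Hist1h2bg stem-loops printed above were covered in WT cells at both days, although these genes are read in opposite directions from a shared promoter. The Hist1h1b and Hist1h3i stem-loops were also covered at both days in WT cells. A peak lay within 1000 bp of the stop codon in 0 Hira-null and 34 WT cases of the 50 genes at day 15, and in 0 Hira-null and 35 WT cases at day 0. For the 17 genes in which no stem-loop was found the counts were 0 Hira-null and 10 WT at day 15, and 0 Hira-null and 4 WT at day 0. A WT peak anywhere in the window was found for 12 of these 17 genes at day 15 and 9 at day 0. Of the 50 genes, 49 had one at day 15 and 45 at day 0, and a link to the stem-loop was not tested. A WT peak lay within 1 kb of the gene end in 40 of 67 histone genes at day 15, against 10.9% of all genes. At day 0 the values were 32 histone genes and 6.73% of all genes. The Hira-null shares over all genes were 3.72% at day 15 and 2.32% at day 0.

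The shared promoters of H2A and H2B genes were looked at apart. There were 12 pairs of an H2A and an H2B gene that start within 600 bp of each other and point apart. The midpoint between their start sites was covered in 0 pairs in Hira-null and 0 in WT cells at day 15, and in 0 pairs in Hira-null and 3 in WT cells at day 0. These 12 midpoints are few beside a WT share over the TSS of all genes of 2.43% at day 15 and 2.28% at day 0, so 0 pairs at day 15 is near that share and 3 at day 0 are above it. At least 1 of the gene ends was covered in 0 pairs in Hira-null and 4 in WT cells at day 15, and in 0 pairs in Hira-null and 7 in WT cells at day 0. In the pair of Hist1h2ae and Hist1h2bg both gene ends were covered in WT cells at both days, with the midpoint covered at day 0 and bare at day 15.

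Promoter motifs were counted next. RefSeq promoters (GRCm38.p6, 250 bases before to 50 after the start) were matched by name for 60 of the 67 genes. CCAAT, the NF-Y motif, was found on either strand in 51 of 60 (85%), against 37.9% of all promoters. TATAAA was found in 35 of 60 (58.3%), against 14.2% of all. The octamer ATTTGCAT was found in 13 of 60 (21.7%), against 1.75% of all, and only in H2A genes (7 of 17) and H2B genes (6 of 16), and the genes of a divergent pair can share a match. Only 3 of 12 H4 promoters held CCAAT. The last 120 bases before the start are shown for Hist1h2bb (chr13:23746614-23746733, plus strand), which had WT peaks at both days, for Hist2h2ac (chr3:96220881-96221000, minus), which had none in any list, and for the H4 gene Hist1h4k (chr13:21750554-21750673, minus), with 4 WT peaks at day 15 and 3 at day 0, with the motifs in capitals (ATTGG is CCAAT on the other strand) and positions on GRCm38.p6.
Hist1h2bb: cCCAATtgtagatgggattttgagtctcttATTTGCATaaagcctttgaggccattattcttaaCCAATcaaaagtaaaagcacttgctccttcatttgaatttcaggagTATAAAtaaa
Hist2h2ac: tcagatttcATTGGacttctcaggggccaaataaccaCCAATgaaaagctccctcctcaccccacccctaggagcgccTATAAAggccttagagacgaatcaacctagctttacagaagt
Hist1h4k: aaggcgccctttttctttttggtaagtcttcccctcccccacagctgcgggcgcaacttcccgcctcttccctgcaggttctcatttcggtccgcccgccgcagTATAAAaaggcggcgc

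Hist2h2ac, with no peak, carries CCAAT and TATAAA before its start as Hist1h2bb does, and Hist1h4k, with peaks, carries TATAAA alone in this stretch. The octamer was in the RefSeq promoters of both Hist2h2ac and Hist1h2bb, but in Hist2h2ac it lay outside the stretch shown. These matches describe the letters only.

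By the share with a peak, the genes that make and process histone mRNA stood between the histone genes and all genes. Of 21 such factors, 2 had a peak in Hira-null and 14 in WT cells at day 15, and 2 had one in Hira-null and 11 in WT cells at day 0. Over all genes the shares were 15.2% in Hira-null and 39.4% in WT cells at day 15, and 20.3% and 35.4% at day 0. These factor genes are mostly longer than the histone genes and their windows include the gene body. The part of gene length was not tested. Npat, which activates histone gene transcription at the clusters, had 0 Hira-null and 1 WT peak at day 15, and 0 Hira-null and 1 WT peak at day 0. Slbp, which encodes the stem-loop binding protein, had 0 Hira-null and 3 WT peaks at day 15 and none at day 0 in either genotype. Pou2f1, which encodes the octamer-binding factor Oct1, had 0 Hira-null and 7 WT peaks at day 15, and 0 Hira-null and 3 WT peaks at day 0.

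The genes of replacement histones are expressed outside S phase too. Of 9 such genes found, 4 had a peak in Hira-null and 8 in WT cells at day 15, and 4 in Hira-null and 8 in WT cells at day 0, where the shares over all genes were 15.2% in Hira-null and 39.4% in WT cells at day 15, and 20.3% in Hira-null and 35.4% in WT cells at day 0. All 8 genes with a WT peak had a HIRA-dependent one at each day. Over all genes, 8380 of the 8810 with a WT peak had one at day 15, and 6926 of the 7911 at day 0. H3f3a and H3f3b both encode H3.3. H3f3a had 5 Hira-null and 3 WT peaks at day 15, and 0 Hira-null and 3 WT peaks at day 0, while H3f3b had 2 Hira-null and 3 WT peaks at day 15, and 0 Hira-null and 7 WT peaks at day 0. Among 7 chaperones of replication-coupled histones, 3 had a peak in Hira-null and 5 in WT cells at day 15, and 1 in Hira-null and 4 in WT cells at day 0. Nasp, a chaperone of H3 and H4, had 2 Hira-null and 7 WT peaks at day 15, and 0 Hira-null and 7 WT peaks at day 0. These lists are longer genes than the histone genes and were counted in windows that include the gene body.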

How the data were processed

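Per the study's methods, the authors aligned paired-end reads to mm9 with Bowtie, removed duplicates and called peaks with MACS 1.4.2 (the version given in the submitters' processing notes) at its default threshold. Each deposited list gives chromosome, start, end and a score per peak, which the authors' caller sets to a scaled −log10 p-value. The input libraries were not analysed here, and whether they served as controls is not given in the sources used here. Starts were converted to count from 1. A gene was counted when a peak touched its window by 1 bp, and a WT peak was HIRA-dependent when the Hira-null list of that day held nothing that touched it, a step checked against bedtools 2.31.1 with 0 differences. Peaks are also compared by cluster. Counting was tested on simulated data, with 300 planted peaks and 0 genes of 22367 miscounted. Python 3.11.15 with pandas 2.3.3, numpy 2.4.6, scipy 1.17.1 and matplotlib 3.10.9 was used. With 1 library per condition, nothing was tested.

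The members and the comparison lists were chosen with earlier results of these data known. Named were the genes with the most peaks, all Hist2h, Hist3h and Hist4h genes, the 3 highest-scoring peaks of each list and peaks over gene bodies; other genes and peaks named were chosen after their values were seen. H1f0 of the replacement histone list was not found under this symbol. Alternatives were a score of at least 100, lists of equal length, a window to 200 bp past the gene end, the gene body with 1 kb on each side, peaks of 1 kb, merged peaks, peaks nearer to a histone gene than to another gene, an overlap of 50% and a Hira-null list widened by 1 kb.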

Additional observations from a re-analysis of the deposited data

Results flagged for a closer look

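The difference between days in distinct peaks over all histone gene windows had opposite signs in the 2 genotypes, although the Hira-null difference is 1 peak. There were 2 peaks at day 15 and 3 at day 0 in Hira-null cells, a difference of -1, against 56 at day 15 and 43 at day 0 in WT cells, a difference of 13. The same held in the cluster from Hist1h4h to Hist1h1e, with 0 peaks at day 15 and 1 at day 0 in Hira-null cells, a difference of -1, against 15 at day 15 and 9 at day 0 in WT cells, a difference of 6. Each count is from 1 library, and the difference between the genotypes was not tested. The whole lists held 7332 Hira-null peaks at day 15 and 17706 at day 0, against 27272 WT peaks at day 15 and 22730 at day 0, while with lists of equal length the windows held 2 Hira-null peaks at day 15 and 1 at day 0, against 21 WT peaks at day 15 and 13 at day 0, so the Hira-null difference then had the same sign as the WT difference.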

How the results depend on the processing

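Of 104 recomputed values, each a count, 83 were within 1.5 times the value reported and 21 were not. With a score of at least 100, histone genes with a peak were 0 in the Hira-null list of day 15 and 34 in the WT list of day 0, and peaks in the windows were 0 in the Hira-null and 33 in the WT list of day 15 and 13 in the WT list of day 0. HIRA-dependent peaks were then 33 at day 15 and 13 at day 0, in 34 genes at day 0. With lists of equal length, 1 gene had a Hira-null and 34 a WT peak at day 0, and the windows held 21 WT peaks at day 15, and 1 Hira-null and 13 WT peaks at day 0. HIRA-dependent peaks were 21 at day 15 and 13 at day 0, in 34 genes at day 0, and the Hira-null difference between days turned from 2 peaks at day 15 and 3 at day 0 to 2 at day 15 and 1 at day 0. With the gene body and 1 kb on each side, 0 genes and 0 peaks were counted in the Hira-null list of day 15, and 1 gene and 1 peak in that of day 0. The WT counts fell too, to 49 genes and 46 peaks at day 15 and 41 genes and 34 peaks at day 0, which is within 1.5 times. Merging peaks less than 1 kb apart left 1 Hira-null peak at day 15. Leaving out peaks made mostly of sequence that recurs in the clusters, an alternative chosen after seeing the data, moved none of the 12 values by over 1.5 times. No paired analysis was possible because each condition has 1 ChIP library and no result comes from a test. Read depth is unknown, so a missing Hira-null peak means that none was called.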
